A study of Mus musculus with 10 samples.

Results

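The cell proliferation genes described here are 36 genes that dividing cells transcribe, 13 of S phase, when DNA is copied, and 23 of mitosis, when the copies are separated. They were listed by name. A probe set naming the gene alone was found for 35 of them among 18194 genes on the array. The expression of Ccnb1 was not analysed here, but its promoter is counted among those of the mitotic genes. Each gene is represented by its probe set with the highest mean over all arrays.

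The study compared aged male mice of the outbred ICR stock that ate the purified diet AIN-93, or that diet with 1 to 2% LB81 yogurt, which is made with the bacteria Lactobacillus bulgaricus and Streptococcus thermophilus. All mice started the diets at 8 months and were sampled at 28 months, and the labels give no genetic change or other treatment in either group. RNA of 10 yogurt-fed or 9 control mice was pooled in equal amounts for jejunum, ileum, distal colon, liver and spleen, and each pool gave 1 array, 10 arrays in all. The values are log2 expression values as deposited, and 1 unit is a 2-fold difference. The floor, below which a value was taken as not measured, was each array's median, 5.42 to 5.5. The defining markers lay above the floor in their own tissue on both arrays, for 3 of 3 ileal, 6 of 6 colonic, 7 of 7 hepatocyte and 6 of 6 splenic genes, and for 7 of 7 enterocyte genes in jejunum. With 1 pool per diet, diet differences within a tissue are unreplicated and carry no p-value; they are log2 ratios, yogurt over control.

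A cell enters the division cycle when cyclin E and its kinase release E2F factors, which switch on genes for copying DNA. The Mcm helicase opens the DNA and Pcna clamps the polymerase to it. Later, cyclin A, cyclin B and Cdk1 drive the cell into mitosis, where kinases and motor proteins build the spindle and the ubiquitin ligase APC/C ends the division. The 2 sets of genes are switched on at different times, the mitotic set through promoters that carry a CHR element and boxes for the factor NF-Y. In the gut wall dividing cells lie mainly in the crypts, the spleen of mice makes blood cells, and most hepatocytes of an adult liver rest.

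The promoters of the S phase and mitotic genes differed in their letters. RefSeq (GRCm38.p6) held a promoter, from 250 bases before to 50 bases after the transcription start, for 11 S phase and 18 mitotic genes. The CHR element, searched as TTTGAA on both strands, was present in 13 of the 18 mitotic promoters (72.2%) and in 1 of the 11 S phase promoters (9.09%, that of Mcm2), against 18.1% of all 27025 promoters. An E2F-type site, searched as TTTNNCGC on both strands, was present in 5 of 11 S phase promoters (45.5%; Mcm3, Mcm5, Mcm6, Mcm7 and Tyms) and in 1 of 18 mitotic promoters (5.56%, that of Cdk1), against 5.27% of all. The NF-Y box CCAAT was common to both, in 88.9% of mitotic and 72.7% of S phase promoters, against 37.9% of all. At least 2 such boxes with a CHR were held by 8 mitotic promoters (44.4%), by none of the 11 S phase promoters and by 2.19% of all promoters. Overlapping matches of 1 motif were each counted, and no match says only that these letters are not in the window.

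The 250 bases before the start are printed for 4 mitotic genes with a CHR and 2 helicase genes with E2F-type sites, because the mitotic and helicase genes are the groups whose diet ratios differed most in distal colon. Capitals mark the matches. In the mitotic promoters these are the CHR and the NF-Y box on either strand, and in Cdk1 also E2F-type sites. In the Mcm promoters they are E2F-type sites and NF-Y boxes on either strand, and matches that overlap form longer runs. The windows are chr9:70421555-70421804 on the minus strand for Ccnb2, chr4:118437344-118437593 on the minus strand for Cdc20, chr7:135716380-135716629 on the minus strand for Mki67 and chr10:69352913-69353162 on the minus strand for Cdk1. Those of the helicase genes are chr8:75109259-75109508 on the plus strand for Mcm5 and chr1:128359706-128359955 on the minus strand for Mcm6.
Ccnb2: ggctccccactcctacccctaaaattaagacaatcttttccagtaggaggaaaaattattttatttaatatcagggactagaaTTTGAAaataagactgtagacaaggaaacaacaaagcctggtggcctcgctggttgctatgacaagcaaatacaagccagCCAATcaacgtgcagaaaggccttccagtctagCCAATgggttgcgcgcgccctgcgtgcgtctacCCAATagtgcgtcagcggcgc
Cdc20: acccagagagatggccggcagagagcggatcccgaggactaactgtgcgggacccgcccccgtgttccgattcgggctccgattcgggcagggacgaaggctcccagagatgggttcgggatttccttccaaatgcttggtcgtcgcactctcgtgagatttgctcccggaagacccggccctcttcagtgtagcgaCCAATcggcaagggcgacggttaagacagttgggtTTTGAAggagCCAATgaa
Mki67: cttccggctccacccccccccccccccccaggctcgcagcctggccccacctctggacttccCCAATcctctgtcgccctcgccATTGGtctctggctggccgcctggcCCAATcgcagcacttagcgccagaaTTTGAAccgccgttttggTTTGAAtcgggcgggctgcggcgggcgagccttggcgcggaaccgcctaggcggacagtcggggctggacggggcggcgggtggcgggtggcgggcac
Cdk1: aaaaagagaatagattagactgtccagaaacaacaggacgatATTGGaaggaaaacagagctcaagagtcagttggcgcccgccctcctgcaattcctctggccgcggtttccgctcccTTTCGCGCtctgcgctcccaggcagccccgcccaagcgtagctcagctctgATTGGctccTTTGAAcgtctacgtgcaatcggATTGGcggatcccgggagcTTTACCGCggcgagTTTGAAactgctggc
Mcm5: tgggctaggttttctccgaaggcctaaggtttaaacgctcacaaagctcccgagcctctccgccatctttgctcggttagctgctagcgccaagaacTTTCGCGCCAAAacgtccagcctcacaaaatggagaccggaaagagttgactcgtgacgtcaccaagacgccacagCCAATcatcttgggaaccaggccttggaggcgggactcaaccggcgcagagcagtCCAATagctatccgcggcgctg
Mcm6: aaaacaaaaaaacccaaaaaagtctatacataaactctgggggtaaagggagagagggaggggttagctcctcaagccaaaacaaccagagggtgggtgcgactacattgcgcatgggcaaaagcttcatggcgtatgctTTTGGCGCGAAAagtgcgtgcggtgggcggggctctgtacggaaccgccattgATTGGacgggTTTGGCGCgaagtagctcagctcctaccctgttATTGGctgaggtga

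**Figure D1:**
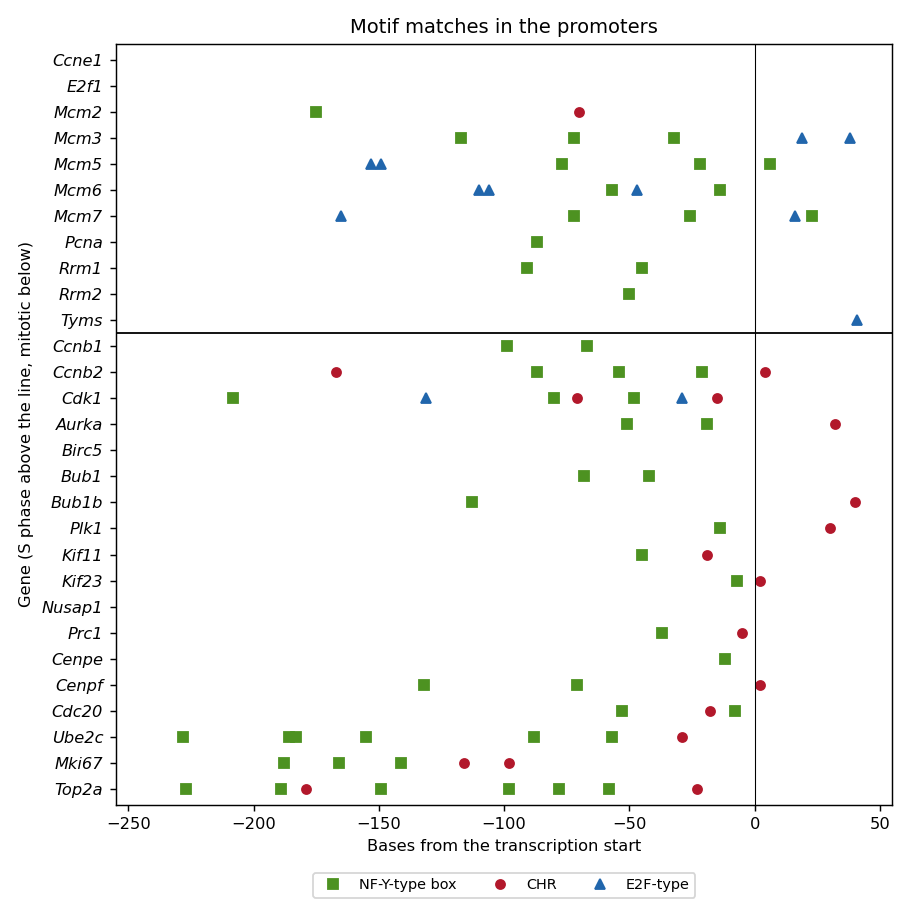
Positions of motif matches in the promoters of 11 S phase and 18 mitotic genes, with the transcription start at 0 and the position in bases on the horizontal axis. Squares mark NF-Y boxes, circles CHR elements and triangles E2F-type sites; circles stand in 13 of the 18 mitotic rows and in 1 S phase row, and triangles in 5 S phase rows and 1 mitotic row.

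The spleen carried the highest level of nearly all of these genes and the liver the lowest. Mean levels of the 2 arrays were highest in spleen for 33 of 35 genes and lowest in liver for 32. The full order spleen, jejunum, ileum, distal colon, liver held for 24 genes, and jejunum lay above ileum for all 35. The exceptions at the top were Plk1, a kinase of mitotic entry, highest in jejunum, and Foxm1, a transcription factor of mitotic genes, highest in distal colon. Ccne1, E2f1 and Rrm2 were lowest in distal colon in place of liver. Tyms, the enzyme that makes thymidylate for DNA, lay below the floor on all 10 arrays (3.93 to 4.80), which leaves 34 measured genes. In a bulk tissue a smaller share of dividing cells and less RNA per dividing cell cannot be told apart.

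**Figure D2:**
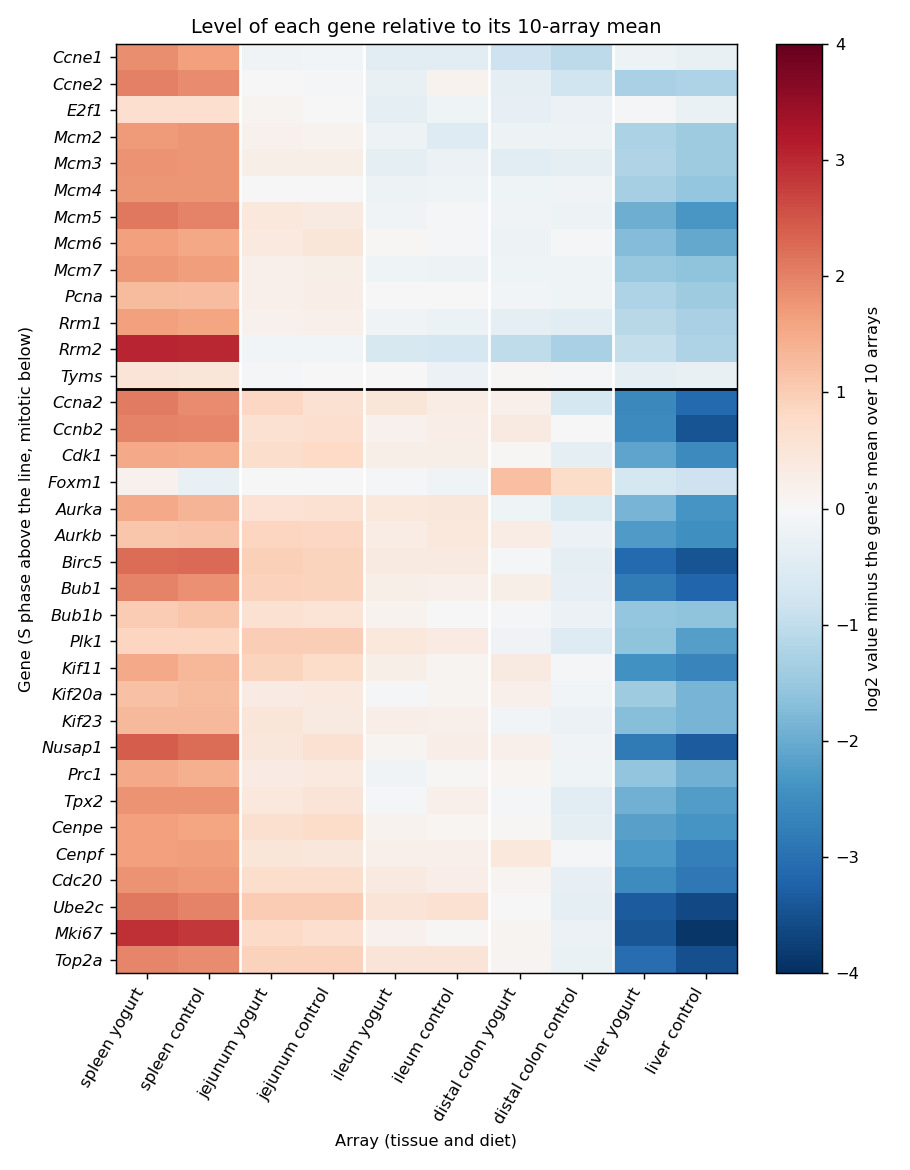
Level of each of the 35 genes on each of the 10 arrays, as the log2 value minus that gene's mean over all arrays (colour scale), with tissue and diet on the horizontal axis, S phase genes above the black line and mitotic genes below. Spleen columns are red and liver columns blue for most genes; Foxm1 is reddest in distal colon.

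Mki67, which coats chromosomes of dividing cells and encodes the Ki-67 antigen, read 12.31 with yogurt and 12.21 with control in spleen, 10.17 and 10.06 in jejunum, 9.57 and 9.45 in ileum, 9.50 and 9.14 in distal colon, and 5.98 and 5.5 in liver. The tissues did not overlap except that ileum and distal colon lay side by side. Rrm2, the ribonucleotide reductase subunit that supplies DNA precursors, read 12.06 and 12.01 in spleen, 8.90 and 8.89 in jejunum, 8.38 and 8.30 in ileum, 8.0 and 7.71 in distal colon, and 8.06 and 7.77 in liver. Here the spleen stood alone and the liver matched the distal colon. Pcna, the polymerase clamp, read 12.68 and 12.65 in spleen, 11.28 to 11.67 on the gut arrays, and 10.17 and 9.99 in liver.

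Differences between tissues were tested with limma across 13599 genes on all 10 arrays, with diet as a term, and a gene was called where it differed 2-fold or more and its p, adjusted by Benjamini-Hochberg, was under 0.05. The p-values measure how far a gene's diet ratio varied between tissues of the same pools, not the spread between mice. In spleen against the mean of the 3 gut segments, 29 of 34 genes were higher and 0 lower, where 10.9% of all genes were higher and 17.2% lower. These were 11 of 12 S phase genes, with a median log2 difference of 1.89, and 18 of 22 mitotic genes, with a median of 1.39, against -0.02 over all genes. Rrm2 was 12.7-fold higher (log2 3.67, SE 0.07, adjusted p = 2.7e-09) and Mki67 6.1-fold (2.61, SE 0.08, adjusted p = 3.8e-08). Cyclin E1 (Ccne1) was 4.76-fold higher (2.25, SE 0.07, adjusted p = 4.3e-08). The 5 genes not called were E2f1 (0.84), Bub1b (0.90), Aurkb (0.73) and Plk1 (0.50), all under 2-fold, and Foxm1 (-0.35).

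The liver was lower than the gut in 31 of 34 genes and higher in 0, where 15.7% of all genes were lower and 10.5% higher. All 22 mitotic genes were called, with a median of -1.97, but 9 of 12 S phase genes, with a median of -1.19, and the median over all genes was -0.10. Mitotic genes below the floor on both liver arrays entered at the floor. Their differences are lower bounds in size, so the mitotic median rests in part on the floor. Mki67 was 15.0-fold lower (-3.91, SE 0.08, adjusted p = 3.7e-09), and Top2a, the topoisomerase that untangles sister chromatids, 13.3-fold lower (-3.73, SE 0.10, adjusted p = 1.3e-08). Ube2c, which loads ubiquitin for the APC/C, was at least 15.2-fold lower, since its control liver array lay below the floor. Birc5, or survivin, of the chromosomal passenger complex, was at least 10.6-fold lower, with both liver arrays below the floor. The S phase genes not called in liver were Ccne1 (0.26, adjusted p = 0.013), E2f1 (-0.01, adjusted p = 0.89) and Rrm2 (-0.45, adjusted p = 0.00046). All 12 measured S phase genes lay above the floor on both liver arrays, and of the 22 mitotic genes 11 did on the yogurt array and 9 on the control array. A floor at the 65th percentile left 19 of the 31 calls, as did the mean of a gene's probe sets.

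Between spleen and liver 32 of 34 genes were higher in spleen and 0 lower, where 16.9% of all genes were higher and 16.3% lower. Mki67 differed 91.5-fold (log2 6.52, SE 0.10, adjusted p = 1e-09) and Mcm7 9.63-fold (3.27, SE 0.05, adjusted p = 6e-10). E2f1 (0.85) and Foxm1 (0.70) stayed under 2-fold. The calls made under each of the settings tried numbered 29 of these 32, 20 of 29 for spleen over gut and 13 of 31 for liver under gut.

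**Figure D3:**
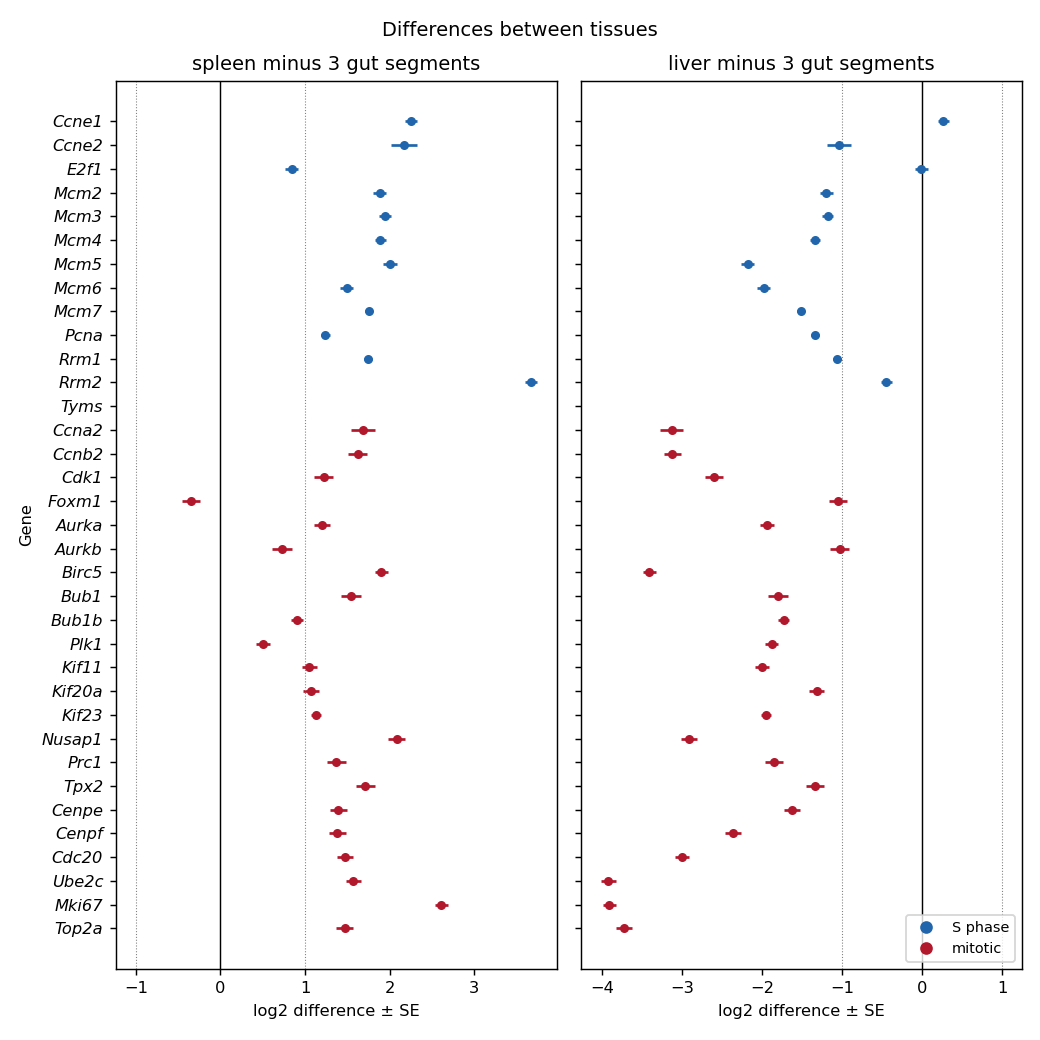
Log2 difference of each gene between spleen and the mean of the 3 gut segments (left) and between liver and that mean (right), with the SE of the limma fit over 10 arrays as bars; dotted lines mark 2-fold. S phase genes are blue and mitotic genes red. Rrm2 is farthest right at 3.67 in spleen, and Mki67 and Ube2c farthest left at -3.91 and -3.92 in liver.

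Within the gut the differences were smaller than those to spleen or liver. Jejunum lay above ileum for all 34 genes, with a median of 0.41, but 0 members were called in limma, where 2.26% of all genes were called higher and 2.68% lower. At an unadjusted p under 0.05, 29 were higher, where 22.3% of all genes were. Distal colon was lower than jejunum in 4 genes and higher in 0, where 4.52% of all genes were lower and 7.65% higher: Plk1 (-1.32, adjusted p = 2.5e-05), Ube2c (-1.20, adjusted p = 7e-05), Birc5 (-1.16, adjusted p = 2.7e-05) and Rrm2 (-1.04, adjusted p = 3.1e-05). The median was -0.66, against 0.07 over all genes. At an unadjusted p under 0.05, 33 members were lower and 1, Foxm1, was higher, where 23.2% of all genes were lower and 40.5% higher. Rrm2 lost its call under at least 1 setting. Against ileum, 1 gene was higher in distal colon and 0 were lower, where 4.88% of all genes were higher and 3.99% lower.

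That gene was Foxm1, which read 8.14 with yogurt and 7.67 with control in distal colon, 6.92 and 6.93 in jejunum, 6.88 and 6.80 in ileum, 7.11 and 6.65 in spleen, and 6.24 and 6.11 in liver. Both colon arrays lay above all others. The difference from ileum was 2.09-fold (log2 1.06, SE 0.13, adjusted p = 0.00036), and it was not called without the ileum yogurt array or without the distal colon yogurt array. A second probe set for Foxm1 above the floor in the gut went the other way, at 5.72 and 5.84 in distal colon against 6.15 and 6.27 in ileum. The gene's other probe sets lay below the floor in both segments.

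Other genes of the cycle, from lists that hold no member, followed the same tissues on the same arrays. In spleen against gut 22 of 36 other replication genes and 35 of 53 other mitotic genes were higher and 0 lower in either list, with medians of 1.26 and 1.30. In liver against gut 14 replication genes were lower and 1 higher, and 35 mitotic genes were lower and 0 higher, with medians of -0.78 and -1.37. Of 17 cell cycle brakes, such as the kinase inhibitor Cdkn1a, 3 were higher and 3 lower in spleen than in gut (17.6% each way, against 10.9% and 17.2% of all genes). In liver 8 of the 17 brakes were lower than in gut (47.1%, against 15.7% of all genes) and 0 higher (against 10.5%). Their median there was -0.97, so a low level in liver was shared by genes that restrain division.

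In distal colon the mitotic genes leaned to the yogurt pool, and the S phase genes, as a group, lay near 0. All 22 mitotic genes were higher in the yogurt pool, by 0.11 to 0.92 on the log2 scale with a median of 0.37, while 8 of 12 S phase genes were higher with a median of 0.03. In all, 30 of 34 genes lay above 0, where 45.4% of the 12362 genes measured in distal colon did, with a median of -0.01. The S phase median minus the mitotic median was -0.34, and it lay between -0.36 and -0.26 under the settings tried. All 22 mitotic genes, against 5 of 12 S phase genes, exceeded 0.08, the upper quartile of all genes. No gene reached 2-fold, and 2 genes, Ccna2 and Bub1, were at least 1.5-fold higher, where 0.946% of all genes were; 0 were lower by that fold, where 0.089% of all genes were.

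**Figure D4:**
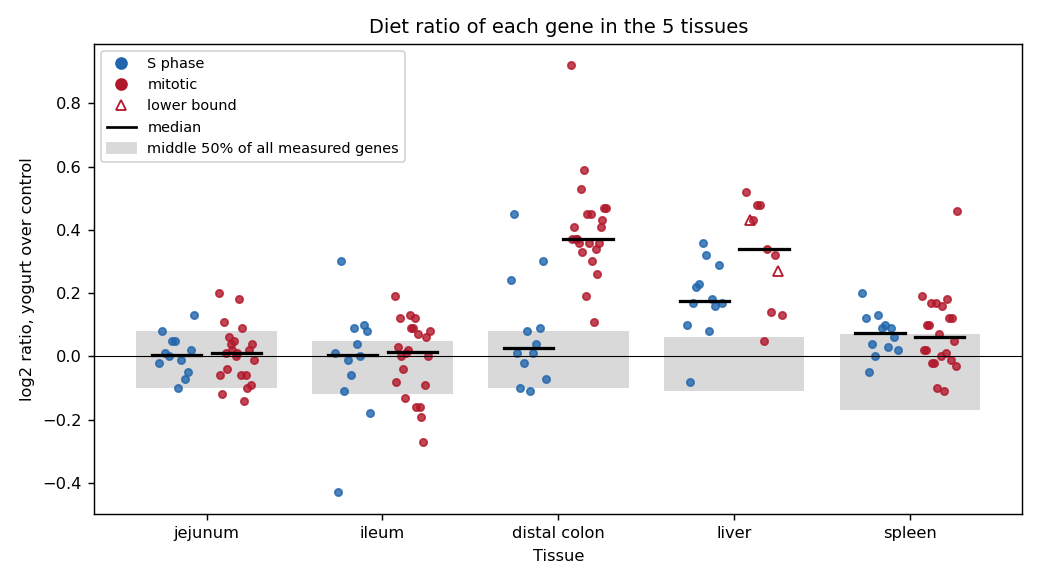
Log2 ratio of yogurt over control (vertical axis) for each measured S phase gene (blue) and mitotic gene (red) in the 5 tissues, with black bars at the medians, open triangles for lower bounds and a grey band over the middle 50% of all genes measured in that tissue. The distal colon shows all 22 mitotic points above the band and a median of 0.37, with S phase genes at 0.03.

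By role, the group of mitotic cyclins, Cdk1 and Foxm1 had all 4 measured genes higher in distal colon and a median of 0.44. The median was 0.43 for the 2 genes of mitotic exit, Cdc20 and Ube2c. Ccna2, the cyclin A of S phase and mitotic entry, read 9.00 with yogurt and 8.08 with control, 1.89-fold higher. A second Ccna2 probe set read 7.79 and 7.39, a ratio of 0.40, so the size depended on the probe set and the direction did not. Cdk1, the kinase of mitotic entry, read 8.78 and 8.37 (0.41), and cyclin B2 (Ccnb2) 8.79 and 8.42 (0.37). Foxm1 was higher by 0.47 on the probe set used, and its second probe set above the floor showed -0.12.

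The mitotic kinases and checkpoint genes were all 6 higher, with a median of 0.36. Bub1, a kinase of the spindle checkpoint, read 7.12 with yogurt and 6.54 with control, 1.5-fold higher. Aurkb, the kinase of the chromosomal passenger complex, read 6.36 and 5.83 (0.53), and Aurka, which matures the spindle poles, 6.98 and 6.62 (0.36). Bub1b, the checkpoint protein BubR1, showed the smallest difference of the group at 6.98 and 6.79 (0.19), and its second probe set above the floor showed 0.48.

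The 8 spindle and kinetochore genes were all higher, with a median of 0.35. Cenpf, a kinetochore protein, read 7.92 and 7.45 (0.47), Kif11, the motor that pushes the poles apart, 7.42 and 6.97 (0.45), and Cenpe, the kinetochore motor, 6.89 and 6.46 (0.43). The smallest ratios were those of Prc1 (0.26) and Kif23 (0.11), which bundle the midzone of the spindle. Cdc20, the activator of the APC/C, read 9.29 and 8.84 (0.45), and Ube2c 9.04 and 8.63 (0.41). Mki67 and Top2a were each higher by 0.37, and Top2a by 0.046 in the mean over probe sets, where its other probe sets lay below the floor.

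The 6 subunits of the Mcm helicase stood apart from these, with 3 higher and 3 lower and a median of -0.01. Mcm2 read 7.85 with yogurt and 7.84 with control in distal colon, Mcm3 7.72 and 7.81, Mcm4 8.94 and 8.96, Mcm5 9.14 and 9.06, Mcm6 9.44 and 9.55, and Mcm7 10.23 and 10.22. On the probe sets used, no subunit differed by more than 0.11 in either direction. Unused Mcm probe sets above the floor on both arrays ran from -0.15 (Mcm2 and Mcm3) to 0.23 (Mcm4). Pcna differed by 0.04 and Rrm1, the large reductase subunit, by 0.09. The S phase genes above 0.2 were cyclin E2 (Ccne2, 6.70 and 6.25, 0.45), Rrm2 (8.0 and 7.71, 0.30) and Ccne1 (6.52 and 6.28, 0.24). A second Ccne1 probe set showed 0.03, and the unused Rrm2 probe sets showed 0.25 and 0.31. E2f1 was at -0.07.

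Probe sets of these genes that were not used gave a like split in distal colon. Among those above the floor on both arrays, 6 of 8 mitotic probe sets were higher with a median of 0.31, and 8 of 13 S phase probe sets with a median of 0.03. They were measured on the same arrays and the same pools. The 13 mitotic genes with a CHR in the promoter had a median ratio of 0.37 (0.11 to 0.47). The 4 measured mitotic genes without one had a median of 0.38 (0.33 to 0.59). This comparison of 17 genes leaves out Ccna2, Aurkb, Kif20a, Tpx2 and Foxm1, for which no promoter was held.

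**Figure D5:**
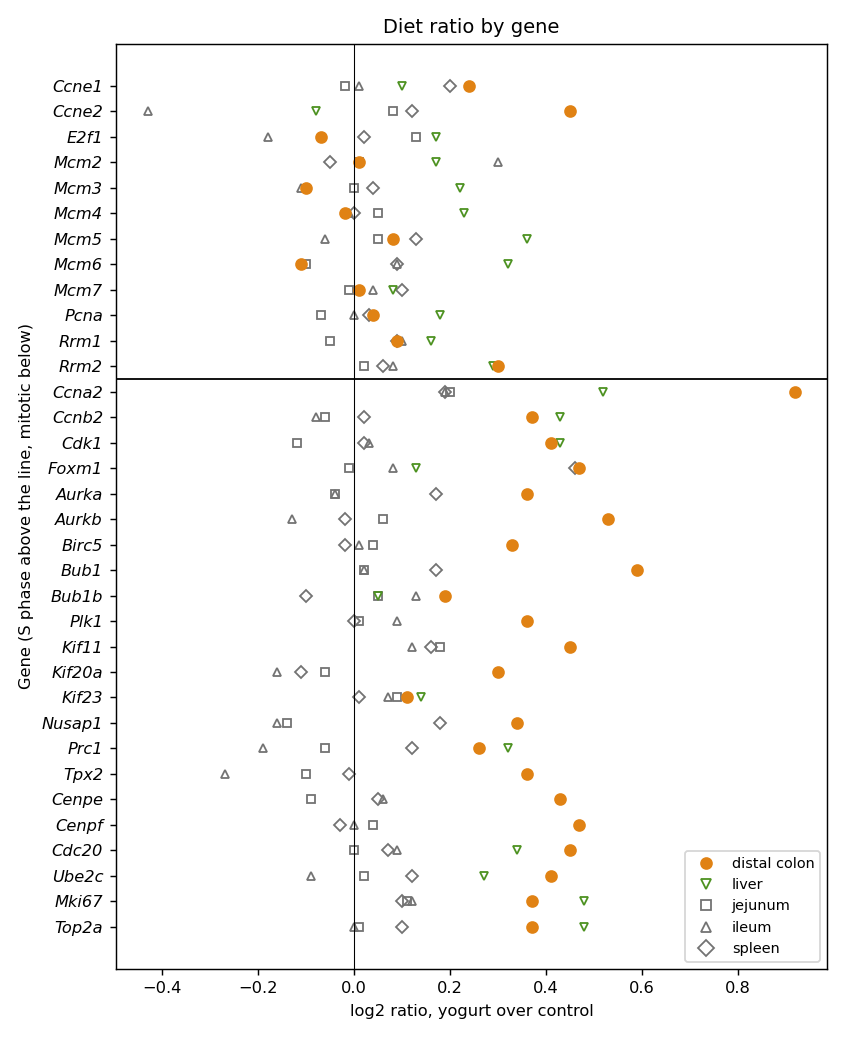
Log2 ratio of yogurt over control (horizontal axis) of each of the 34 measured genes, with filled circles for distal colon and open symbols for the other tissues; a missing symbol means both arrays lay below the floor. In distal colon Ccna2 is farthest right at 0.92, and the 6 Mcm genes lie between -0.11 and 0.08.

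Genes outside the member list showed a like split in distal colon, on the same arrays and pools as the members. Their lists were chosen with earlier results of these data known, so the split is no separate support. All 51 other mitotic genes measured there were higher, with a median of 0.33. They ran from Bub3 (0.03), a checkpoint protein, and the phosphatase Cdc25b (0.06) to Kif18a (0.60), a spindle motor, and Ect2 (0.67), an activator of cytokinesis. Of 36 other replication genes 23 were higher, with a median of 0.05, from the chromatin assembly subunit Chaf1b (-0.24) and Gins2 (-0.16) to geminin (Gmnn, 0.23) and Dbf4 (0.44), the activator of the Cdc7 kinase. Regulators of G1 had a median of 0.08 with 9 of 13 higher. Cell cycle brakes had a median of 0.01 with 9 of 17 higher, from Cdkn1a (-0.28) to Trp53inp1 (0.14). Crypt stem cell markers had a median of 0.05 with 6 of 7 higher, from Smoc2 (-0.21) to Lgr5 (0.13). Ascl2, counted as higher, was at 0.00 after rounding.

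Markers of other cells also differed between the colon pools. All 7 smooth muscle markers were lower with yogurt (median -0.23, mean level 10.93 against 11.20), all 4 measured adipocyte markers were higher (median 1.35, mean level 8.02 against 6.91) and all 7 measured B cell markers were lower (median -0.14, mean level 6.79 against 6.94). Of 4 measured enterocyte markers 3 were higher (median 0.85), with Fabp2, a fatty acid carrier, at 1.63. Of 6 colon markers 2 were higher, the carbonic anhydrases Car1 (1.32) and Car4 (0.40), and 4 were lower, down to Hoxd13 (-0.24) and Hoxb13 (-0.25). Their median was -0.13. Both ileum markers measured in distal colon were higher (median 0.35). The part of these cells in the mitotic ratios was not tested. As a measure of RNA integrity, the actin probe sets gave a log2 ratio of 3' to 5' ends of 1.01 with yogurt and 0.93 with control, and those of Gapdh 0.23 and 0.13.

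In liver both S phase and mitotic genes were mostly higher in the yogurt pool. Of 23 measured genes 22 were higher, where 42.2% of 12161 genes were, and the exception was Ccne2 (-0.08). The S phase median was 0.17 with 11 of 12 higher, and the mitotic median 0.34 with 11 of 11 higher, against -0.03 over all genes. None reached 1.5-fold, where 0.502% of all genes were that much higher. The mitotic levels lay close to the floor. With it at the 65th percentile the mitotic median became 0.132 and the S phase median lay 0.068 above it. Without any floor all 22 mitotic genes were higher, with a median of 0.36, where 46.4% of all genes were.

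All 6 Mcm genes were higher in the yogurt liver on their used probe sets, which set the liver apart from the distal colon. Mcm5 read 7.31 with yogurt and 6.95 with control (0.36), Mcm6 7.92 and 7.60 (0.32), Mcm4 7.77 and 7.55 (0.23), Mcm3 6.96 and 6.74 (0.22), Mcm2 6.80 and 6.63 (0.17), and Mcm7 8.88 and 8.80 (0.08). The median was 0.22, and these values lay well above the floor. Unused Mcm probe sets above the floor on both liver arrays ran from -0.08 (Mcm3) to 0.48 (Mcm2). The second Mcm4 probe set showed 0.05 in liver, less than its 0.23 in distal colon. Rrm2 differed by 0.29, Pcna by 0.18 and Rrm1 by 0.16. Other replication genes had a median of 0.11 with 25 of 31 higher, from the thymidine kinase Tk1 (-0.42) to Gins2 (0.52).

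Among mitotic genes in liver, Ccna2 read 6.20 and 5.68 (0.52), Mki67 5.98 and 5.5 (0.48), Top2a 6.03 and 5.56 (0.48), Cdk1 6.63 and 6.20 (0.43) and Cdc20 6.65 and 6.32 (0.34). Ccnb2 read 5.86 with yogurt and 4.97, below the floor, with control, which gives at least 1.35-fold. In the control pool all 6 lay less than 1 unit above the floor or below it. Of 31 other mitotic genes 27 were higher, with a median of 0.16, led by Ckap2 (0.67), a spindle protein, and Nek2 (0.53), a centrosome kinase.

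Blood cell markers differed beside these in liver. All 10 markers of myeloid progenitors and neutrophils were higher with yogurt (median 0.37, mean level 7.03 against 6.5), with S100a8 at 1.27, and 5 of 6 plasma cell markers were lower (median -0.36, mean level 8.10 against 8.51). Of 10 erythroid markers on the array 3 were measured, with a median of -0.20. For actin the 3' to 5' log2 ratio was 1.82 with yogurt and 2.01 with control in liver, above the 0.66 to 1.09 of the other tissues. That of Gapdh was 0.86 and 0.98 in liver, above the 0.05 to 0.23 of the gut and below the values of spleen. The part of these in the ratios of the proliferation genes was not tested.

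In jejunum and ileum the ratios scattered around 0. In jejunum 18 of 34 genes were higher, where 46.5% of all genes were, with an S phase median of 0.00 and a mitotic median of 0.01. The range was -0.14 (Nusap1, a microtubule bundler) to 0.20 (Ccna2). In ileum 20 of 34 were higher, where 37.9% of all genes were, with the same medians. Ccne2 was lowest at 6.76 with yogurt and 7.19 with control (-0.43) and Mcm2 highest at 7.85 and 7.55 (0.30), and no member was 1.5-fold higher in either segment, where 0.636% and 0.211% of all genes were that much higher. Of other replication genes 8 of 36 were higher in jejunum (22.2%, median -0.06) and 13 of 35 in ileum (37.1%, median -0.02). Of other mitotic genes 25 of 53 were higher in jejunum (47.2%, median -0.01) and 17 of 51 in ileum (33.3%, median -0.04). In jejunum the other replication genes thus leaned to the control pool, and the members did not lean to either pool. Pancreas markers in the jejunum samples had a mean level of 12.09 with yogurt and 10.34 with control.

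In spleen 27 of 34 genes were higher, where 38.5% of all genes were, but by small amounts. The S phase median was 0.07 with 11 of 12 higher and the mitotic median 0.06 with 16 of 22 higher, against -0.05 over all genes. No member reached 1.5-fold, where 0.632% of all genes were that much higher, and Foxm1 had the largest ratio (7.11 and 6.65, 0.46). Its second probe set above the floor showed 0.13. Unused probe sets above the floor gave a different count for S phase genes, 5 of 17 higher with a median of -0.02, and 10 of 13 for mitotic genes with a median of 0.07. Of other replication genes 19 of 36 were higher (median 0.01) and of other mitotic genes 27 of 53 (median 0.02). Myeloid progenitor and neutrophil markers were higher in 10 of 10 cases in that yogurt pool (median 1.27, mean level 10.65 against 9.40), and megakaryocyte markers in 6 of 6 (median 0.34). Germinal centre B cell markers were lower in 5 of 6 (median -0.50). The Gapdh 3' to 5' log2 ratio was 1.29 with yogurt and 1.01 with control in spleen, the highest of the 5 tissues. That of actin was 1.09 and 1.01. The part of these cells and of RNA integrity in the spleen ratios was not tested.

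A diet shift common to the 5 tissues was tested with the diet term of the fit over all arrays. It called 0 members and 0 of 13599 genes (0.0%) at an adjusted p under 0.05 in limma. At an unadjusted p under 0.05, 7 members were higher and 0 lower, where 2.29% of all genes were higher and 8.33% lower. These were Ccna2 (0.40, SE 0.11, adjusted p = 0.36), Mki67 (0.23, SE 0.06, adjusted p = 0.36), Kif11, Rrm2, Cdc20, Foxm1 and Top2a. Of these, Ccna2, Mki67, Rrm2 and Top2a were above 0 in 5 of 5 tissues on their used probe sets, Top2a in ileum by 0.00 after rounding. Unused probe sets did not all follow. That of Ccna2 showed 0.01 in jejunum, -0.04 in ileum, 0.40 in distal colon and 0.08 in spleen. A second one of Foxm1 showed -0.15, -0.12, -0.12 and 0.13 in the same order. The 5 tissues share the 2 groups of mice, so these are not independent trials of the diet.

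Whether the ratio of 1 tissue differed from that of the other 4 was asked with an added term, chosen after the data were seen. In distal colon limma called 0 members by it, where 0.235% of all genes were called higher. At an unadjusted p under 0.05, 11 of 22 mitotic genes and 0 of 12 S phase genes were higher than elsewhere, where 3.67% of all genes were. The smallest adjusted p was 0.42, for Aurkb (0.54, SE 0.12), followed by Ccna2 (0.64, SE 0.15, adjusted p = 0.49), Bub1 (0.53, SE 0.13, adjusted p = 0.50) and Cenpf (0.46, SE 0.11, adjusted p = 0.50). The median of the term over the mitotic genes was 0.33. Leaving out the liver gave a median of 0.39 and a count of 14 of 22. Without any floor the median was 0.28 and the count 5 of 22. The share of all genes at that unadjusted p is not given for these settings, so the counts cannot be set against it. The smallest adjusted p over all these settings was 0.12.

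In liver the same limma term called 0 members, where 0.0882% of all genes were called higher, and its smallest adjusted p was 0.76. At an unadjusted p under 0.05, 5 of 12 S phase genes and 0 of 22 mitotic genes were higher than in the other tissues, where 3.04% of all genes were. They were Mcm5 (0.31), Mcm6 (0.33), Mcm3 (0.27), Mcm4 (0.22) and Pcna (0.18). With both liver arrays below the floor, 11 of the 22 mitotic genes had a liver ratio set by the floor and could hardly pass. Without a floor the counts were 3 of 13 S phase and 4 of 22 mitotic genes, with medians of 0.18 and 0.28, and under a 35th-percentile floor 4 of 13 and 3 of 22. Leaving out jejunum or ileum gave 2 S phase and 0 mitotic genes, and leaving out distal colon gave 4 and 6. These counts, too, stand without the share of all genes under the same settings. Ileum gave 1 member at that level, Ccne2 (-0.58, SE 0.21, adjusted p = 1), where 1.68% of all genes were lower. Jejunum and spleen gave 0 members in limma, adjusted or unadjusted. The difference between S phase and mitotic genes in distal colon therefore stands as a description of 1 pair of pools.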

How the data were processed

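Each of the 10 arrays (an Affymetrix whole-genome mouse array) was hybridised with 100 ng of pooled RNA, per the labels. The authors deposited log2 expression values, from 2.71 to 14.76, and MAS5 and affy appear, without version or role, in the submitters' processing notes, so the summary and scaling behind them are not known. Of 45101 probe sets, 34958 named 1 gene. The members and lists were chosen with earlier results of these data known, and 2 entries were dropped from the lists later (Clec4f and the alias Sgol1). All members were named. From other lists, ratios were given for genes among the 2 highest and 2 lowest, with marker genes named after their values were seen. The floor was the 50th percentile of each array, and lower values were raised to it. Genes with both arrays of a tissue under the floor counted as not measured there. Tissue and diet were fitted with limma 3.58.1 (lmFit, eBayes with trend) in R 4.3.3 over 10 arrays, leaving 4 residual degrees of freedom, for 13599 genes above the floor on at least 2 arrays. Tested on simulated data for distal colon against ileum, the fit recovered 100% of 100 genes planted at a log2 difference of 1.5 and 100% of 100 planted at 3. The simulated noise was independent between arrays. The members differed between these segments by -0.80 to 1.06, and recovery of differences of that size was not tested. Ratios, lists and motifs were computed in Python 3.11.15 with pandas 2.3.3. The first RefSeq promoter listed for a gene was used. Alternatives changed the floor, the normalization, the probe set rule, the diet term and the arrays included. The number of arrays limits the precision.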

Additional observations from a re-analysis of the deposited data

Results flagged for a closer look

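E2f7, an E2F family repressor from the list of G1 regulators, had a diet ratio in liver that differed from its ratio in the other 4 tissues. It read 5.77 with yogurt and 6.94 with control in liver, a log2 ratio of -1.17, and its ratios elsewhere lay between -0.09 and 0.11. The difference was -1.16 (SE 0.11, limma adjusted p = 0.049), in a term added after the data were seen. The adjusted p was 0.027 with the mean of probe sets, 0.036 with quantile normalization, 0.11 under a 35th-percentile floor, 0.12 under a 65th-percentile floor and 0.16 without a floor, and 0.12 to 0.29 with another tissue left out.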

How the results depend on the processing

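In distal colon the mitotic median stayed between 0.323 and 0.385 and the S phase minus mitotic difference between -0.356 and -0.262 under the alternatives for floor, pseudocount, centring, normalization and probe set. The count of members at least 1.5-fold higher there was 1 under a 65th-percentile floor, pseudocount 32, quantile normalization or the mean of probe sets, against 2. In liver, a 65th-percentile floor gave a mitotic median of 0.132, an S phase minus mitotic difference of 0.068 and 12 members above 0, and 2 members were at least 1.5-fold higher under a 35th-percentile floor or none. Values near 0 changed sign in the other tissues. The jejunum S phase median was -0.004 under a 65th-percentile floor, -0.004 with none, -0.002 with quantile normalization and -0.016 with the mean of probe sets, where the mitotic median was -0.024 and the S phase minus mitotic difference 0.009 in jejunum and 0.047 in ileum. In spleen that difference was -0.006 under a 35th-percentile floor, -0.006 with none and -0.015 with quantile normalization. Members lower in liver than in gut numbered 19 under a 65th-percentile floor or the mean of probe sets. Members higher in distal colon than in ileum numbered 0 with quantile normalization or the mean of probe sets and 0 to 1 when an array was left out. Against jejunum, 8 were lower with quantile normalization, 3 to 11 when an array was left out, and 0 to 1 were higher. The cause was not tested. Of the summary values, 447 kept direction and call, 19 moved and 11 reversed. Of the values of single genes, 4247 did so, 21 moved, 21 gained a call and 55 lost one. The diet term ties together the arrays of 1 pool of mice across tissues, and beyond it no paired analysis was possible because the labels carry no replicate numbers and each group is 1 array.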
